A study of Danio rerio with 6 samples.

Results

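A set of 3 genes that serve protein synthesis was examined in zebrafish embryos labelled wild type or mutant for dgcr8: bysl (ENSDARG00000001057), lcmt2 (ENSDARG00000000747) and osgepl1 (ENSDARG00000000651). They were taken by gene name, bysl for ribosome assembly and lcmt2 and osgepl1 for tRNA modification, and are 3 of the 99 genes in the table used here. RNA sequencing measured messenger RNA in whole AB-strain embryos 4.5 hours after fertilization, at 30% epiboly, when the blastoderm begins to spread over the yolk. The wild-type group and the MZdgcr8 group, in which both the maternal and the zygotic Dgcr8 supply is mutant, had 3 libraries each, with 50 embryos pooled in every library. The labels name no allele, and dgcr8 itself was not analysed here, so the genotypes rest on the labels alone.

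Dgcr8 is the double-stranded RNA-binding partner of the nuclease Drosha, and the pair makes the first cut in canonical microRNA precursors. Bystin, the product of bysl, is needed for the small ribosomal subunit to be processed and matured in the nucleus, a role known from yeast (where the gene is called ENP1) and from mammalian cells. The product of lcmt2 corresponds to yeast Tyw4, which completes wybutosine, a bulky modified base beside the anticodon of the phenylalanine tRNA. The product of osgepl1 is the mitochondrial enzyme that makes threonylcarbamoyladenosine, a modified base beside the anticodon of tRNAs that read codons starting with A. An early embryo begins with messenger RNA and ribosomes laid down in the egg and replaces the messenger RNA with its own as the zygotic genome is switched on.

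Replicates 1 and 2 lay close to each other and apart from replicate 3 in both genotypes. Levels are in FPKM, the fragments assigned to a gene per kilobase of its transcript, scaled by the mapped fragments of each library. Over the 67 genes whose mean reached 1 FPKM, libraries 1 and 2 correlated at 0.996 in wild type and in MZdgcr8 (Pearson, log2(FPKM + 1)). Replicate 3 correlated with them at 0.891 to 0.901 in wild type and at 0.801 to 0.805 in MZdgcr8. The comparison of genotypes is therefore given with and without replicate 3, and what sets replicate 3 apart was not tested. Relative library depth ran from 0.797 to 1.14, with the replicate 3 libraries the shallowest in each genotype. Of 24 marker genes listed for the stage and its cell layers, 1 (krt97) was in the table, so stage and tissue could not be checked beyond it. Without replicate 3, krt97 was lower in MZdgcr8 by log2 -2.31 (edgeR, adjusted p = 1.08e-05), 1st of the 67 genes in order of p. With all libraries and no block it was at log2 -0.60 ± 0.99 SE (edgeR, adjusted p = 0.898). Whether the genotypes differed in stage or cell layers was not tested. Whether replicates are separate clutches is not stated, so the spread behind every p-value may be technical.

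All 3 genes were measured in every library and passed the minimum of 1 FPKM. Bysl was the most abundant per transcript length, at a mean of 29.1 FPKM over the 6 libraries, 20th in order among the 67 tested genes, whose median was 11.7 FPKM. Osgepl1 and lcmt2 were low, at means of 4.15 and 3.92 FPKM, 54th and 57th in order. The levels of these 2 did not differ beyond their spread, with SDs of 1.54 and 1.35 FPKM, and which of them was higher changed between libraries. The count behind each value ran from 1928 to 5066 for bysl, from 465 to 1374 for lcmt2 and from 261 to 606 for osgepl1. The table lists 1 transcript each for bysl and osgepl1 and 2 for lcmt2.

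The ribosome assembly gene bysl had 22.7, 21.7 and 54.2 FPKM in wild-type replicates 1, 2 and 3. In MZdgcr8 embryos it was at 15.3, 15.5 and 45.3 FPKM. Within each replicate number the MZdgcr8 value was the lower one, and replicate 3 was high in both genotypes. The groups overlapped, because MZdgcr8 replicate 3 lay above wild-type replicates 1 and 2. The wild-type mean was 32.9 ± 18.5 FPKM (SD, n = 3) and the MZdgcr8 mean 25.4 ± 17.2 FPKM (SD, n = 3), a difference smaller than either SD.

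The wybutosine gene lcmt2 was at 4.89, 6.04 and 2.78 FPKM in wild-type replicates 1, 2 and 3. In MZdgcr8 embryos its values were 3.57, 3.78 and 2.44 FPKM. Again each MZdgcr8 value lay below the wild-type value of the same number, and replicate 3 was low in both genotypes. The groups overlapped, here because wild-type replicate 3 lay below MZdgcr8 replicates 1 and 2. The means were 4.57 ± 1.65 FPKM for wild type and 3.26 ± 0.720 FPKM for MZdgcr8 (SD, n = 3 each).

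The mitochondrial tRNA modification gene osgepl1 was even in wild type, at 4.98, 5.28 and 4.45 FPKM. In MZdgcr8 embryos it was at 2.24, 2.22 and 5.70 FPKM. Replicates 1 and 2 of MZdgcr8 were thus the lowest of the 6 libraries and MZdgcr8 replicate 3 was the highest. The means were 4.90 ± 0.420 FPKM for wild type and 3.39 ± 2.00 FPKM for MZdgcr8 (SD, n = 3 each). In a whole-embryo library, fewer cells that hold a transcript and less of it per cell cannot be told apart.

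**Figure D1:**
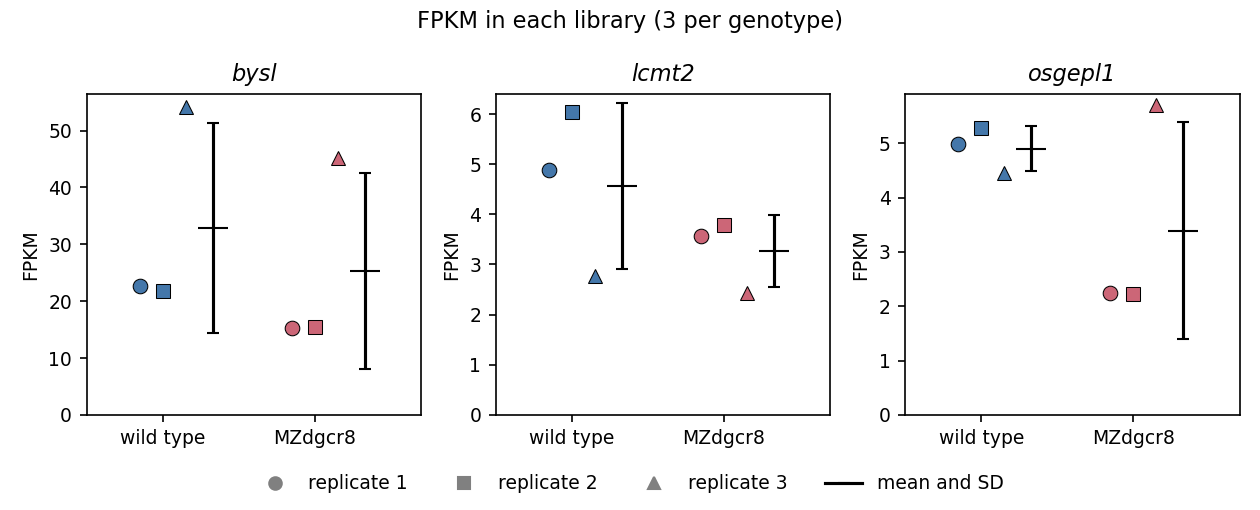
FPKM (y axis, linear, from 0) of bysl, lcmt2 and osgepl1 in each of the 3 wild-type and 3 MZdgcr8 libraries, with marker shape giving the replicate number and the bar giving the mean and SD of the 3. Replicate 3 (triangles) was high for bysl in both genotypes (54.2 and 45.3 FPKM), low for lcmt2 in both (2.78 and 2.44 FPKM), and for osgepl1 high in MZdgcr8 (5.70 FPKM).

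Setting MZdgcr8 against wild type asks whether messenger RNA levels at epiboly differ between embryos labelled with these genotypes. Over all 6 libraries, edgeR's quasi-likelihood test called none of the 3, and 0 of the 67 tested genes in all (0%). The estimates were all on the lower side, at log2 -0.37 ± 0.61 SE for bysl, -0.49 ± 0.44 for lcmt2 and -0.53 ± 0.55 for osgepl1 (edgeR, adjusted p = 0.898 for each). The 95% intervals ran from -1.83 to 1.08 for bysl, from -1.55 to 0.58 for lcmt2 and from -1.86 to 0.79 for osgepl1. As ratios of MZdgcr8 to wild type these intervals span 0.281 to 2.12, 0.342 to 1.49 and 0.276 to 1.73, so changes in either direction lie within them. At an unadjusted p under 0.05 edgeR had 5 of the 67 genes, none of the 3 among them, while DESeq2 had 8 and limma on log2(FPKM + 1) had 6, and both called 0 after adjustment. None of the 3 had groups that did not overlap, which 12 of the 67 genes had (17.9%). Leaving out wild type replicate 3 alone turned the estimate for bysl to 0.19 ± 0.59 SE, and leaving out MZdgcr8 replicate 3 alone moved it to -1.09 ± 0.52 SE. Either removal keeps replicate 3 in 1 genotype only, so its shift and the genotype cannot be told apart there.

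The replicate numbers were treated as pairing the libraries, and with the number as a block edgeR called 5 of 67 genes (7.46%), all higher and none of the 3 among them. DESeq2 with the same block called 13, 8 higher and 5 lower, again without the 3. The block narrowed the estimate for bysl to log2 -0.44 ± 0.12 SE (edgeR, unadjusted p = 0.0199, adjusted p = 0.102) and that for lcmt2 to -0.44 ± 0.19 (unadjusted p = 0.0756, adjusted p = 0.175). For osgepl1 it left the estimate wide, at -0.69 ± 0.45 (unadjusted p = 0.200, adjusted p = 0.328). Bysl, lower in MZdgcr8 in 3 of 3 pairs, was 12th of the 67 genes in order of p in this fit. Lcmt2, also lower in 3 of 3 pairs, was 29th, and osgepl1, lower in 2 of 3, was 40th. Of the 67 genes, 29 (43.3%) were lower in 3 of 3 pairs. The pairs are inferred from the data, as no label says what a replicate number stands for. The data set replicate 3 apart but cannot tell which libraries of replicates 1 and 2 belong together.

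Without replicate 3, all 3 genes were lower in MZdgcr8 embryos, and for each both MZdgcr8 values lay below both wild-type values. The SEs, intervals and p-values of this fit rest on the spread between replicates 1 and 2 alone. These correlated at 0.996 in each genotype, so the errors leave out the distance to replicate 3. Osgepl1 fell the most, by 1.20 ± 0.11 SE on the log2 scale, 2.29-fold (edgeR, 95% interval -1.45 to -0.94, adjusted p = 0.000267). Lcmt2 fell by 0.57 ± 0.12 on the log2 scale, 1.49-fold (95% interval -0.87 to -0.27, edgeR adjusted p = 0.00711). Bysl fell by 0.53 ± 0.08 on the log2 scale, 1.44-fold (95% interval -0.73 to -0.33, edgeR adjusted p = 0.00207). In the same fit 43 of 67 genes (64.2%) were called, 27 of them lower (40.3%), and 39 of 67 (58.2%) had MZdgcr8 values wholly below the wild-type values. A call as lower was therefore common in the table, and 3 of 3 is not set apart from it. By order of p osgepl1 was 6th, bysl 20th and lcmt2 32nd of the 67.

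The median log2 change of the 67 genes in these 4 libraries was -0.15, so the middle of the table was itself on the lower side. Relative to that median osgepl1 stood at log2 -1.04, lcmt2 at -0.42 and bysl at -0.37. TMM and RLE scaling were computed on the same 67 genes, so they bring the median of these genes toward 0, here to -0.05 and -0.01. All 3 genes were still called lower, where 28.4% of the tested genes were called lower with RLE and 29.9% with TMM. With RLE the log2 changes were -1.06 for osgepl1, -0.43 for lcmt2 and -0.39 for bysl, with edgeR adjusted p of 0.00133, 0.0402 and 0.0114. With TMM they were -1.09, -0.46 and -0.42.

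**Figure D2:**
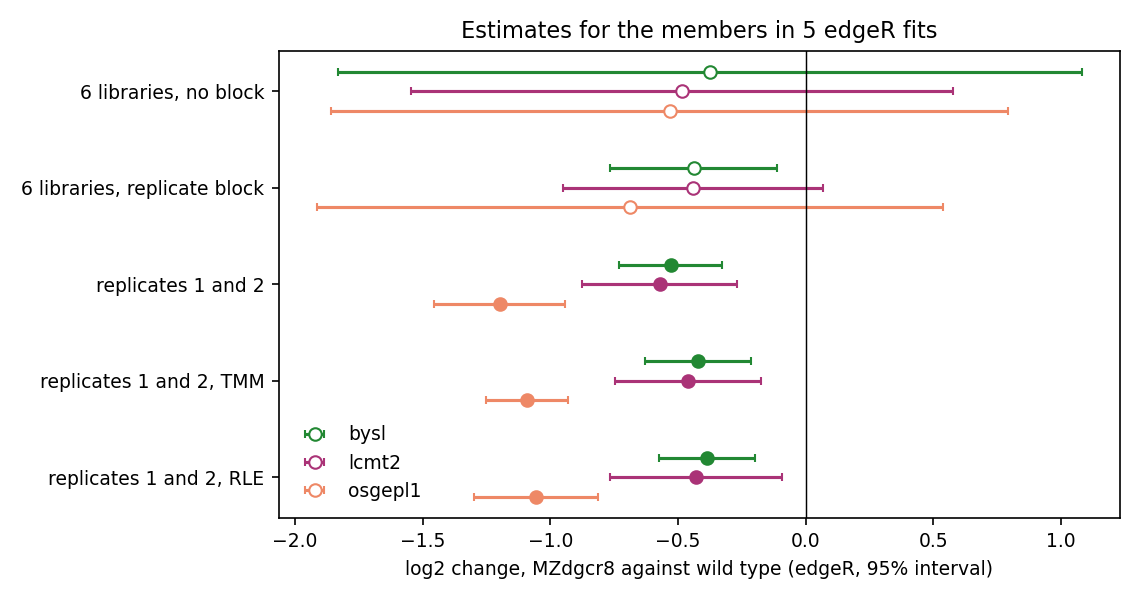
Log2 change of MZdgcr8 against wild type (x axis) for bysl, lcmt2 and osgepl1 in 5 edgeR fits (rows), with 95% intervals as bars and filled points where the adjusted p was under 0.05. The intervals with all 6 libraries and no block span 0 for each gene, whereas without replicate 3 all points are filled and lie below 0 under each of the 3 scalings shown.

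Within single replicate numbers the difference in osgepl1 did not keep its sign. The log2 ratio of MZdgcr8 to wild-type FPKM for osgepl1 was -1.15 and -1.25 in replicates 1 and 2, among the lowest of the 67 genes (3rd and 2nd from the bottom). In replicate 3 it was 0.36, so MZdgcr8 was there 1.28 times the wild type. A pattern of lower, lower and higher was found in 10 of the 67 genes (14.9%).

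For bysl the ratios were -0.57, -0.49 and -0.26, and for lcmt2 they were -0.45, -0.68 and -0.19. Both genes thus kept the lower side in 3 of 3 replicate numbers, as did 29 of the 67 tested genes (43.3%). In replicate 3 the ratios of both lay near the median of the tested genes, which was -0.16. Replicate 3 holds 1 library of each genotype, so its ratios have no replicate error, and their difference from those of replicates 1 and 2 was not tested.

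**Figure D3:**
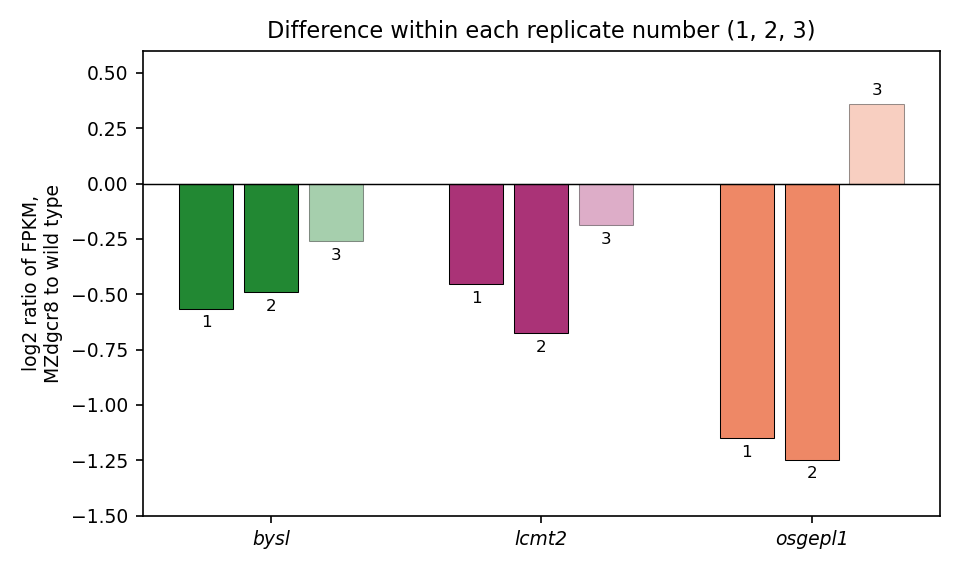
Log2 ratio of MZdgcr8 to wild-type FPKM (y axis) within replicate numbers 1, 2 and 3 (numbered bars, replicate 3 paler) for bysl, lcmt2 and osgepl1. All bars lie below 0 except that of osgepl1 in replicate 3, at 0.36.

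The 3 genes did not all change together across the 6 libraries. The libraries of replicate 3 were the highest 2 for bysl and the lowest 2 for lcmt2. In wild type bysl in replicate 3 was 2.44 times the mean of replicates 1 and 2, while lcmt2 was 0.509 times and osgepl1 0.867 times its own mean. In MZdgcr8 the ratios were 2.94 for bysl, 0.664 for lcmt2 and 2.55 for osgepl1. Osgepl1 thus went with bysl in MZdgcr8 and with neither in wild type, where it was close to level.

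Most tested genes were lower in replicate 3, with median ratios of 0.667 in wild type and 0.611 in MZdgcr8. Lcmt2 was 39th and 32nd from the top in wild type and MZdgcr8, near those medians, while bysl had the 3rd and 4th highest ratio of the 67 genes in wild type and MZdgcr8. Osgepl1 was 24th from the top in wild type and 5th in MZdgcr8. These shifts are descriptions of 1 library per genotype, with no test.

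The ratio of one transcript to another within a library shows the same. Bysl was 3.60 to 4.64 times as abundant per length as lcmt2 in the 4 libraries of replicates 1 and 2, in either genotype. In replicate 3 it was 19.5 times as abundant in wild type and 18.6 times in MZdgcr8. The ratio of bysl to lcmt2 therefore followed the replicate and differed little by genotype.

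The ratio of osgepl1 to lcmt2 followed both. In replicates 1 and 2 it was 1.02 and 0.874 for wild type against 0.629 and 0.588 for MZdgcr8. In replicate 3 the order was the other way, at 1.60 in wild type and 2.34 in MZdgcr8. The ratio of bysl to osgepl1 was 4.55, 4.12 and 12.2 in the wild-type libraries in order of replicate number, against 6.83, 6.96 and 7.94 in the mutant ones.

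**Figure D4:**
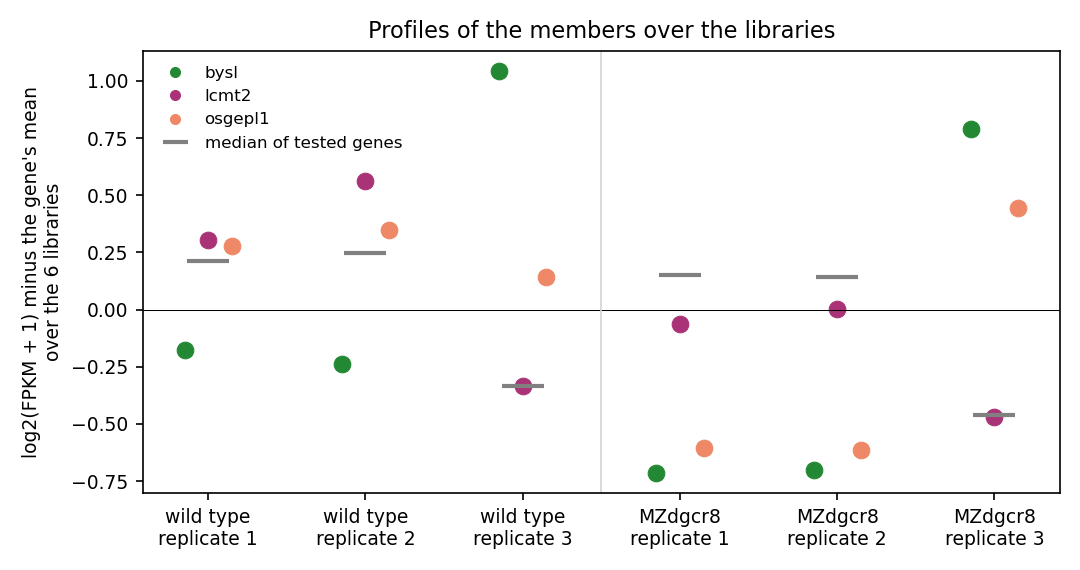
Level of bysl, lcmt2 and osgepl1 in each library as log2(FPKM + 1) minus the gene's own mean over the 6 libraries (y axis), with a grey dash for the median of the 67 tested genes. In replicate 3 bysl reached 1.04 in wild type and 0.79 in MZdgcr8, lcmt2 was at -0.34 and -0.47, near the median, and osgepl1 was at 0.14 and 0.44.

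Likeness of pattern was measured as the root mean square difference between 2 genes' log2(FPKM + 1) values over the 6 libraries, each centred on the gene's own mean. The difference was 0.94 for bysl and lcmt2, 0.55 for lcmt2 and osgepl1, and 0.50 for bysl and osgepl1, where the median over all 2211 pairs of tested genes was 0.63. Bysl and lcmt2 thus lay farther apart than the median pair, and osgepl1 lay somewhat nearer than the median to both. The added 1 shrinks the changes of low genes such as lcmt2 and osgepl1 more than those of bysl. Likeness without it, or with another pseudocount, was not computed, so these distances hold for this scale only. Among the 66 other genes, osgepl1 was 7th and lcmt2 29th in nearness to bysl. In nearness to osgepl1, bysl was 15th and lcmt2 19th. In nearness to lcmt2, osgepl1 was 40th and bysl 60th, so no member was among the 3 genes nearest to another.

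The gene nearest to bysl was dzip1, which encodes a zinc finger protein needed for Hedgehog signalling in zebrafish, at a difference of 0.08. Dzip1 was at 5.81, 4.88 and 12.3 FPKM in wild-type embryos and 3.45, 3.20 and 10.8 FPKM in mutants, so it too was high in replicate 3. Next came arl14ep at 0.28 and the identifier ENSDARG00000000394 of matr3l1.1 at 0.34.

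Nearest to lcmt2 were the stress-activated kinase gene mapk14a (0.12), nfyal (0.13) and the motor protein gene kifc1 (0.13), all 3 of which were lower in replicate 3 in both genotypes. Mapk14a, for example, was at 57.7, 58.7 and 40.2 FPKM in wild-type embryos and 43.1, 45.0 and 35.9 FPKM in mutants. Nearest to osgepl1 were the synaptophysin-like gene sypl2b (0.20), the ubiquitin ligase gene g2e3 (0.23) and the deubiquitinase gene usp49 (0.28). Usp49 shared the turn in replicate 3, at 2.71, 2.75 and 2.18 FPKM in wild-type embryos and 1.83, 2.05 and 4.48 FPKM in mutants. Sypl2b, the nearest, did not turn, since its MZdgcr8 replicate 3 value (3.83 FPKM) stayed below the wild-type one (4.22 FPKM). For g2e3 the mutant value of replicate 3 (39.3 FPKM) was only a little above its wild-type counterpart (38.1 FPKM).

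Other genes of these pathways could not be set beside the members. Of 108 ribosome assembly genes listed, bysl was the 1 in the table, and of 81 genes for tRNA modification and splicing, the 2 were lcmt2 and osgepl1. Of 79 ribosomal protein genes and 41 tRNA synthetase genes and partners, 0 were in it. The other genes of these lists were not analysed here, and the 3 members stand for themselves alone.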

How the data were processed

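The authors deposited 1 table with FPKM and counts for each gene and library, per the file headers. The headers name the measure, FPKM (a scaling to transcript length and mapped fragments) or count, and say nothing of normalization. The counts are whole numbers. The submitters' processing notes list Bowtie 0.12.2, HISAT2 2.0 and StringTie 1.3.0 with no roles. Their build, mm8, is a mouse build while the identifiers are zebrafish Ensembl ones, so no coordinates are printed. All 99 identifiers were matched in a table of gene names.

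Column totals (358811 to 576050 counts) cover 99 genes and are not depths. Relative depth came from the ratio of count to FPKM over 58 genes above 200 counts throughout, with deviations of at most 0.0048 (log2), and served as library size. No count is 1, 2 or 3, while 11 of 594 are 4, so 1 count may not be 1 read and no counting intervals are given. The 67 genes whose mean reached 1 FPKM were tested in edgeR 4.0.16 (quasi-likelihood, R 4.3.3), two-sided, with Benjamini-Hochberg adjustment over all 67 and a threshold of 0.05. Standard errors were derived from the log2 change and its F statistic. The edgeR step was tested on simulated counts for all libraries, with replicate 3 either unshifted or shifted alike in both genotypes. Pass limits were set for the fit without a block when unshifted and for the fit with the block when shifted. The fit without a block under a shift had no pass limit. The fit without replicate 3, and a shift that differs by genotype, were not simulated. DESeq2 1.42.0, limma 3.58.1 (pseudocounts of 0.1, 1 and 5), TMM and RLE scaling, other minima and the removal of libraries were alternatives. The fit without replicate 3 was planned when earlier results of these data had already shown replicate 3 to lie apart. The fits without replicate 3 under other scalings or in DESeq2 were added after seeing the data.

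Group and replicate number come from the genotype label and the sample titles. To check for pairing, each library was centred on its group mean and same-numbered libraries were correlated across the tested genes, giving 0.77, 0.76 and 0.80 for numbers 1 to 3. The numbers were used as pairs, although no label explains them. The check sets only replicate 3 apart. Wild type replicate 2 and MZdgcr8 replicate 1 also correlated at 0.82, and wild type replicate 1 and MZdgcr8 replicate 2 at 0.71. Which libraries of numbers 1 and 2 belong together cannot be told from it. The members, gene lists and rules were chosen with earlier results of these data known. The naming rule took the 3 members and, for each, the 3 tested genes nearest in pattern, passing over placeholder symbols. Promoter motifs were planned but no sequence was used here. Whether counting used strand, and how it treated overlapping genes, is not stated in those sources.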

Additional observations from a re-analysis of the deposited data

How the results depend on the processing

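With all 6 libraries, no alternative scaling, test, pseudocount or expression minimum that was run changed the direction or the call of bysl, lcmt2 or osgepl1, and neither did the replicate block (log2 -0.44, -0.44 and -0.69). With a minimum of 5 FPKM only bysl among them was tested. Leaving out libraries gave ranges of -1.09 to 0.19 for bysl, -0.74 to -0.23 for lcmt2 and -1.20 to -0.25 for osgepl1. The sign of bysl turned without wild type replicate 3 (0.19), a fit that keeps replicate 3 in MZdgcr8 only. Each gene was called lower without replicate 3 of both genotypes (-0.53, -0.57 and -1.20), also with TMM (-0.42, -0.46 and -1.09), RLE (-0.39, -0.43 and -1.06) or DESeq2 (-0.53, -0.57 and -1.20). Of the tested genes, 0 were called with 6 libraries and no block, against 2 with RLE, 5 with the replicate block, 4 with the block and TMM, and 13 with the block in DESeq2. When libraries were left out the count ran from 0 to 43, with 3 without MZdgcr8 replicate 3 and 43 without replicate 3 of both genotypes. Of those 43 genes 27 were lower, against 20 of 41 with TMM, 19 of 41 with RLE and 26 of 44 in DESeq2. All calls of the 3 genes rest on 4 libraries.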

Other observations

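Some of the genes that lie next to the members in the RefSeq annotation of assembly GRCz12tu are also in the table, 6 of the 18 protein-coding genes within 3 places on either side. This rule was chosen after the values were seen. Next to lcmt2 lies gtf2e1, a subunit gene of the general transcription factor TFIIE, at 24.6, 25.7 and 22.0 FPKM in wild-type embryos and 48.7, 50.9 and 30.4 FPKM in MZdgcr8. Without replicate 3 gtf2e1 rose by 0.98 ± 0.07 SE on the log2 scale (edgeR, adjusted p = 0.000124), while lcmt2 fell by 0.57. In that fit 16 of the 67 tested genes (23.9%) were called higher. With all 6 libraries gtf2e1 was not called, at log2 0.85 ± 0.32 SE (edgeR, no block, adjusted p = 0.559). Nor was it with the replicate block, at 0.81 ± 0.16 SE (edgeR, adjusted p = 0.0591). Next to osgepl1 lies ankar, too low to be tested. Its FPKM values were 0.121, 0.202 and 0.217 in wild type and 0.0186, 0.0343 and 0.0398 in MZdgcr8. These values rest on counts of 7 to 72, and the groups did not overlap over the 6 libraries. Of the 67 tested genes 12 (17.9%) had such groups, and the share among genes as low as ankar was not computed.

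Farther from osgepl1, pms1 and asnsd1 were not called without replicate 3 (log2 -0.10 and -0.16, edgeR adjusted p = 0.337 and 0.193). Near bysl, usp49 fell by 0.49 ± 0.10 on the log2 scale in that fit (edgeR, adjusted p = 0.00515). There dstyk was not called (log2 -0.04, adjusted p = 0.489). With all 6 libraries usp49 did not keep its fall, at log2 0.13 ± 0.46 SE (edgeR, no block, adjusted p = 0.917). With the replicate block it was at 0.01 ± 0.39 SE (edgeR, adjusted p = 0.999). Of the 5 neighbours tested, 4 were not called lower without replicate 3 and 1, usp49, was. In that fit 27 of the 67 tested genes (40.3%) were called lower. In the same annotation the span of lcmt2 overlaps crygs2 and that of osgepl1 overlaps adat3, a gene for tRNA deamination. Neither was analysed here, and reads from such overlaps could be counted for either gene.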
